A study of Mus musculus with 12 samples.

Results

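Livers of mice that carry a constitutively active FoxO3 transgene were compared with livers of wild type control animals, 4 arrays against 4, taken by the titles of the samples from a series of 12 arrays. The other 4 arrays, from transgenic mice given metformin, entered the fit only through the shared estimate of the spread. They also counted in the means over 12 arrays that chose the row of each gene and the genes left out, described below. Liver RNA of 1 animal was hybridised to each one-colour Affymetrix whole-transcript array, and the mice were 7 weeks old. Both groups shared a mixed C57BL/6 and NMRI origin that had been crossed back to C57BL/6 at least 4 times. The transgene stood under the LAP promoter, known for driving expression in hepatocytes, and it was present in every transgenic mouse whereas the controls are labelled wild type. The labels name neither the mutation that makes FoxO3 active, nor the founder line, nor the sex of the animals. Of the 35556 rows of the value table, 21789 carry the name of exactly 1 gene, and for each symbol the row with the highest mean over the 12 arrays was kept, which gave 19938 genes. The 25% of genes with the lowest mean were left out, so 14953 genes were tested.

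FoxO3 is a forkhead transcription factor at the end of the insulin pathway. When insulin binds its receptor, the insulin receptor substrates and phosphoinositide 3-kinase activate the kinase Akt, which phosphorylates FoxO proteins so that they leave the nucleus. In fasting the FoxO proteins stay nuclear, and in the liver the family is known for turning on genes of glucose output, of insulin sensitivity and of the stress defence, and for opposing the genes of fat synthesis. A constitutively active form escapes this control, and the comparison asks which liver transcripts differ when such a form is present.

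The arrays differed in transcripts of the sex chromosomes, and 1 transgenic array stood apart. All 4 transgenic livers had low Xist, a noncoding RNA made from an inactive X (4.25 to 4.70 on the log2 scale), and high Y-linked Eif2s3y (8.43 to 8.83). Among the wild type livers, replicates 2 and 3 had low Xist (4.36 and 4.30) and replicates 1 and 4 had high Xist (11.73 and 11.66). The metformin-treated arrays all had high Xist (10.57 to 11.95). The mean r of transgenic replicate 2 over genes was 0.9842 with the wild type group and 0.9683 with its own, whereas replicates 1, 3 and 4 had 0.9492 to 0.9693 with wild type and 0.9789 to 0.9836 with their own group. Hepatocyte transcripts were abundant in both groups: albumin (Alb) read 13.69 to 13.83 in transgenic and 13.79 to 13.89 in wild type livers, and the hepatocyte regulator Hnf4a read 11.68 to 12.06 and 11.94 to 12.07. Foxo3 itself read 8.86, 8.60, 8.85 and 8.97 in transgenic livers and 8.79, 8.89, 8.54 and 8.85 in wild type livers. The groups overlapped, and the difference of 0.05 had p = 0.5714 in a two-sided exact permutation test, where 0.0286 is the smallest p that 4 against 4 arrays allow. No source used here says whether the Foxo3 probes read the RNA of the transgene, so this level checks nothing about the labels.

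Of the 14953 genes, 2111 (14.1%) had an adjusted p under 0.05 in limma, which is the meaning of rose, fell and called throughout. In transgenic livers 1192 genes rose (7.97%) and 919 fell (6.15%), and the median difference over all tested genes was -0.01 on the log2 scale. Each list count below from this fit is to be read beside these shares. The groups did not overlap for 3276 genes (21.9%), which was 10.9% higher and 11% lower in transgenic livers. Of the called genes 56.5% were higher, a share that was 52.6% after quantile normalization and 74.5%, 58.7% or 43.9% when the arrays were centred on the median of all rows, of the named genes or of the tested genes. The count rested on single arrays. It was 1138, 4004, 764 and 1198 without transgenic replicates 1 to 4 in turn, and 941, 1103, 1187 and 1034 when wild type replicates 1 to 4 were left out. Leaving out metformin-treated replicate 3 gave 3254. With the difference between Xist and the Y-linked genes as a covariate 650 genes passed (4.35%), 2.79% higher and 1.56% lower. With only the 6 arrays of low Xist 9 passed (0.0602%), 0.0535% higher and 0.00669% lower, and when transgenic replicate 2 was also left out 2629 passed (17.6%), 10.5% higher and 7.11% lower. Without replicate 2 in the fit of all other arrays, 26.8% passed, 15.4% higher and 11.4% lower.

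Several textbook targets of FoxO factors were among the most raised transcripts. Igfbp1, a secreted binding protein that withholds insulin-like growth factors and is normally repressed by insulin, read 13.52, 10.09, 13.54 and 13.35 in transgenic livers and 9.64, 9.49, 8.66 and 9.06 in wild type livers. The other transgenic livers were thus well above, and replicate 2 lay just above the wild type range. The difference was 3.41 ± 0.64 on the log2 scale (limma estimate ± SE, adjusted p = 0.00789), or 10.6-fold, and 3.55 against the low-Xist wild type livers alone. Pdk4, the kinase that shuts pyruvate out of the mitochondrial oxidation, read 12.28, 8.96, 12.66 and 12.17 in transgenic livers and 8.07, 7.48, 7.94 and 7.16 in wild type livers, and it rose by 3.86 ± 0.72 (adjusted p = 0.00777). Irs2, the insulin receptor substrate that FoxO factors are known to induce, read 9.87, 8.11, 9.90 and 9.58 in transgenic livers and 7.91, 7.37, 7.61 and 7.83 in wild type livers and rose by 1.69 ± 0.33 (adjusted p = 0.00975). In all 3 genes the groups did not overlap although replicate 2 was the lowest transgenic array.

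The sestrins, stress-induced regulators that restrain mTORC1, showed another pattern over the arrays. Sesn3 read 10.33, 10.62, 10.44 and 10.04 in transgenic livers and 9.01, 8.66, 9.03 and 9.41 in wild type livers, and Sesn1 read 9.37, 9.38, 9.32 and 9.56 in transgenic livers and 8.38, 8.15, 8.55 and 8.65 in wild type livers. Here replicate 2 was as high as the other transgenic livers, and the rises were 1.33 ± 0.15 and 0.98 ± 0.12 (adjusted p = 0.00101 and 0.00142). Sesn2 read 7.87, 7.26, 8.69 and 8.48 in transgenic livers and 6.91, 7.05, 6.88 and 6.85 in wild type livers, with replicate 2 the lowest of its group, and rose by 1.15 ± 0.24. Txnip, which binds and inhibits thioredoxin, read 12.42, 11.41, 12.57 and 12.36 in transgenic livers and 10.24, 9.89, 10.35 and 10.06 in wild type livers and rose by 2.05 ± 0.27 (adjusted p = 0.00157). Depp1, a gene known from other tissues as a FoxO target, read 10.98, 9.999, 11.35 and 10.57 in transgenic livers and 7.86, 7.79, 8.21 and 8.61 in wild type livers and rose by 2.61 ± 0.31. Smaller rises were those of the DNA damage-binding protein Ddb1 (0.84 ± 0.10), the pocket protein Rbl2 (0.51 ± 0.07), which holds cells out of the cycle, the translation repressor Eif4ebp1 (0.62 ± 0.11), the ubiquitin ligase subunit Fbxo30 (0.92 ± 0.21) and Rictor (0.83 ± 0.18), a subunit of the Akt-activating complex mTORC2. Rictor missed the threshold without transgenic replicate 3 (adjusted p = 0.0531).

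Across the list of 52 tested FoxO-responsive genes 17 rose and 2 fell, against 7.97% and 6.15% of all tested genes, and the median difference was 0.28 against -0.01. The list was written from general knowledge of FoxO biology, but with earlier results of these data known. It is thus not independent evidence of its direction. With the Xist covariate 13 rose and 0 fell, and among the low-Xist arrays without replicate 2 there were 21 that rose and 1 that fell. With all low-Xist arrays limma called 0 members, while 21 were higher and 0 lower at an unadjusted p under 0.05. Of all 14953 tested genes 1682 were higher and 1416 lower at that p in the same fit. Not every textbook target was raised. The gluconeogenic enzyme genes G6pc and Pck1 differed by -0.30 ± 0.23 and 0.14 ± 0.16, with adjusted p of 0.374 and 0.588. G6pc read 12.78, 11.72, 12.41 and 12.66 in transgenic livers and 12.91, 12.77, 12.75 and 12.33 in wild type livers, so that replicate 2 was the lowest liver of all. The antioxidant genes Sod2 and Cat differed by -0.25 ± 0.10 and -0.12 ± 0.08 and were not called, and neither was Foxo1 (-0.27 ± 0.23). The death-promoting gene Bcl2l11 differed by 0.62 ± 0.22 (adjusted p = 0.0792) and passed without replicate 2 (0.90, adjusted p = 0.000117). The death ligand Tnfsf10 fell by 0.57 ± 0.16, a call lost without transgenic replicate 1, 3 or 4 and without wild type replicate 1, 2 or 4 (adjusted p up to 0.0943).

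**Figure D1:**
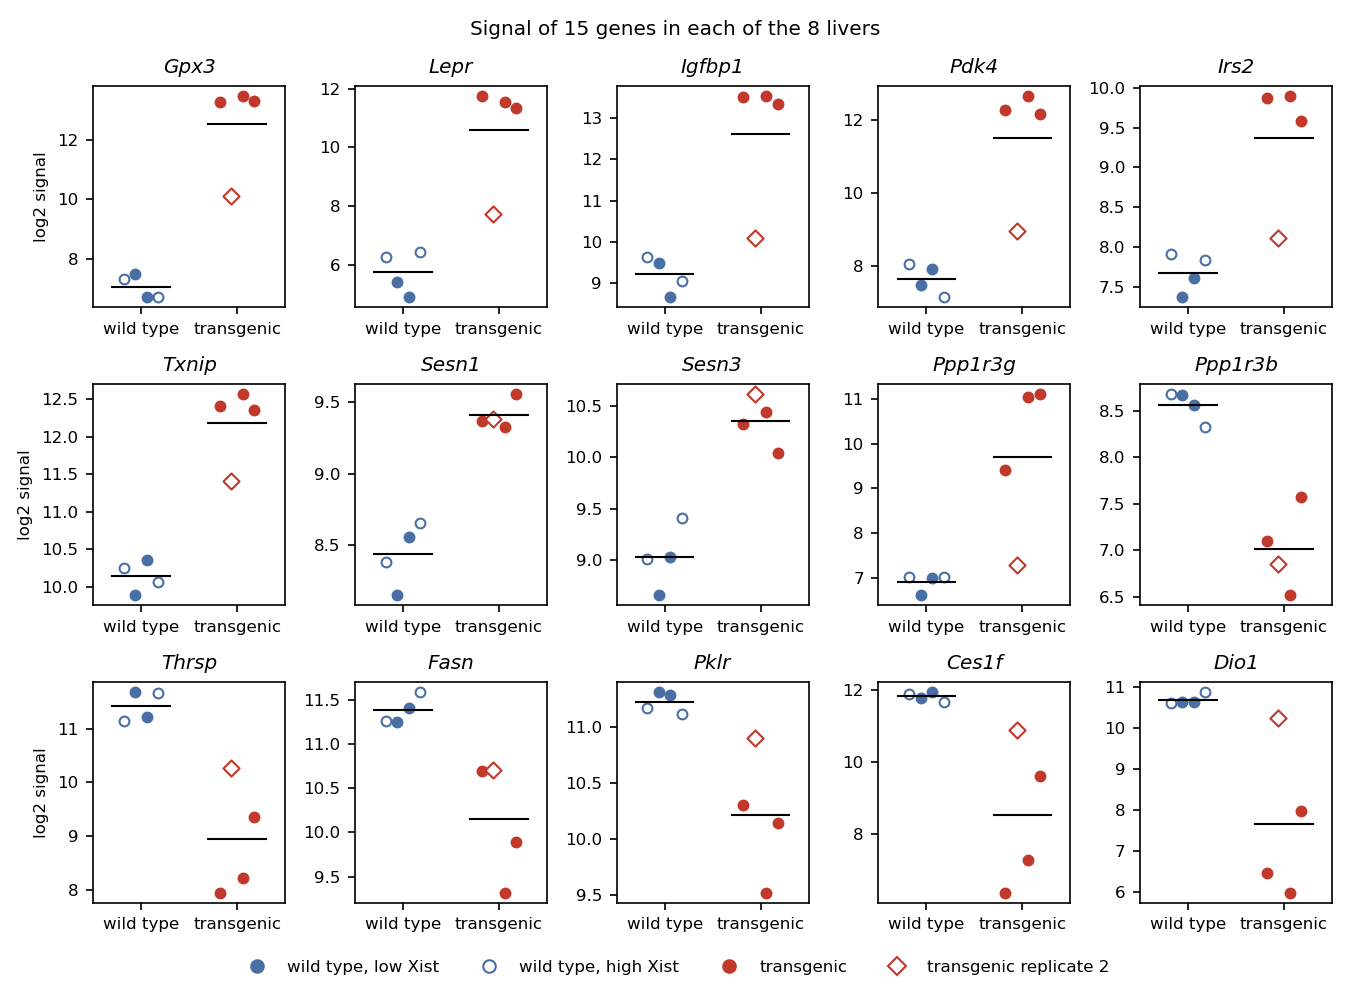
Log2 signal of 15 genes in the 8 livers, 1 point per array, with the group mean as a bar; open circles are the wild type livers with high Xist and the open diamond is transgenic replicate 2. Igfbp1, Pdk4, Lepr and Gpx3 put replicate 2 between the wild type livers and the rest of its group, while Sesn1, Sesn3 and Ppp1r3b put it within its group.

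The promoter letters of 4 raised genes and 1 lowered gene are shown because they hold a core forkhead motif. The motifs, of 7 bases each, were searched on both strands, GTAAACA (reverse complement TGTTTAC), the core bound by forkhead factors, and CAAAACA, reverse complement TGTTTTG, a core known from insulin response elements such as that of Igfbp1. No stretch of 7 bases can match both. Of the 219 named genes that were called, 165 matched a window in the RefSeq promoter table of GRCm38.p6 (250 bases before to 50 after the start site), and 23 held at least 1 match. The share of all genes with either motif was not counted. The genes shown were picked from these 23, which include others that fell, such as F11 and Igfals. Gpx3, Pdk4, Sesn3 and Depp1, which all rose, held no match, and neither did the other window of Lepr. The sequences below are the 250 bases before the start site, 5′ to 3′ in the direction of transcription, with the motif in capitals.
Igfbp1 (chr11:7197537-7197786, plus strand): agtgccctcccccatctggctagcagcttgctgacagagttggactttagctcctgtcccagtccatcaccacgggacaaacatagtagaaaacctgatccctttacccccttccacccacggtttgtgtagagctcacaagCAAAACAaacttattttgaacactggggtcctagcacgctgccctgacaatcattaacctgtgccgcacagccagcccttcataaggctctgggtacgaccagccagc
Lepr (chr4:101717656-101717905, plus strand): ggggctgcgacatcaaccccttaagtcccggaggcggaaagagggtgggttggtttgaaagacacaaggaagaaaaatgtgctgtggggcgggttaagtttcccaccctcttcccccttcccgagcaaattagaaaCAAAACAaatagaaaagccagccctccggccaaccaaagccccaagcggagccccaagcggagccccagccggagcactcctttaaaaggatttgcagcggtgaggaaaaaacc
Txnip (chr3:96557707-96557956, plus strand): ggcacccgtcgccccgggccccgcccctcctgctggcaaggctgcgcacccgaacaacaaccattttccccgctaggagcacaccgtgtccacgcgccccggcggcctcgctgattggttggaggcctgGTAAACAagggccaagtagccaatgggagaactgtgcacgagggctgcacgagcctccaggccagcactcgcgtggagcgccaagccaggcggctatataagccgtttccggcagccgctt
Irs2 (chr8:11008930-11009179, minus strand): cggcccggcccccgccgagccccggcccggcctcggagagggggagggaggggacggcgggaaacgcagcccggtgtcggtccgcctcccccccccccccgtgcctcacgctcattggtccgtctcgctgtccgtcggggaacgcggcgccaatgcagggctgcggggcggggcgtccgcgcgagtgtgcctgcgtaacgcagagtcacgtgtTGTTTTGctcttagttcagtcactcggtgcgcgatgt
Thrsp (chr7:97417551-97417800, minus strand): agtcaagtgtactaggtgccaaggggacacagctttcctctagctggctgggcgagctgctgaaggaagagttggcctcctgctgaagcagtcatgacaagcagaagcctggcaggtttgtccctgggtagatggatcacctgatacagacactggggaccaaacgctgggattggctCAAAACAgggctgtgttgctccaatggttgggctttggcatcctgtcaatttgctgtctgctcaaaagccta
The motif began 108 bases before the start site in Igfbp1, 114 in Lepr, 121 in Txnip, 37 in Irs2 and 72 in Thrsp, the last of which fell. GTAAACA was in the windows of 4.58% of the genes that rose (43 of 938 with a window), 2.91% of those that fell (21 of 722) and 3.26% of all tested genes with a window (387 of 11862). CAAAACA was in 6.29%, 5.82% and 5.26%. Over all 32851 windows kept the shares were 3.65% and 6.28%. The windows of 1 chromosome and of unplaced sequences had been left out beforehand, so genes there count as without a window. A match describes these letters and is not a measured binding site.

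Genes of insulin signalling were called in 1 direction. Of 34 tested members, with a median difference of 0.13, 7 rose and 0 fell (20.6% and 0%, against 7.97% and 6.15% of all tested genes). Besides Irs2, Rictor and Eif4ebp1 they included the kinase Akt1, which read 10.01, 9.79, 10.29 and 10.002 in transgenic livers and 9.23, 9.38, 9.37 and 9.45 in wild type livers and rose by 0.67 ± 0.10 (adjusted p = 0.00297). Pdpk1, the kinase that activates Akt, rose by 0.73 ± 0.13, and Ptpn1, a phosphatase that switches the insulin receptor off, rose by 0.45 ± 0.10. The insulin receptor Insr (0.29 ± 0.12, adjusted p = 0.128) and Akt2 (0.15 ± 0.07, adjusted p = 0.128) were not called, although their 4 transgenic arrays all lay above the 4 wild type arrays. Irs1 and the kinase subunit Pik3r1 differed by 0.64 ± 0.28 and -0.85 ± 0.29 and were not called with all arrays. Without replicate 2 they passed, at 0.91 and -1.08 (adjusted p = 0.0152 and 0.0103).

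Hormone receptors and the circulating IGF system moved in both directions. Lepr, the leptin receptor, had the largest rise but 1 among the named genes. It read 11.74, 7.74, 11.56 and 11.34 in transgenic livers and 6.29, 5.45, 4.92 and 6.45 in wild type livers and rose by 4.82 ± 0.78 (adjusted p = 0.00423) or 28.2-fold, with replicate 2 in between. Of 22 tested genes of the growth hormone and IGF axis 6 rose and 5 fell. Igfbp2, another IGF-binding protein, read 12.69, 11.25, 12.53 and 12.38 in transgenic livers and 10.39, 10.09, 9.83 and 10.18 in wild type livers and rose by 2.09 ± 0.33. Socs2, an inhibitor of growth hormone signalling, read 10.03, 9.85, 10.86 and 11.50 in transgenic livers and 8.74, 8.96, 9.12 and 8.90 in wild type livers and rose by 1.63 ± 0.31. Igfals, which holds IGF1 in a stable complex in serum, read 7.05, 9.22, 7.13 and 8.55 in transgenic livers and 9.82, 9.53, 10.004 and 10.16 in wild type livers and fell by 1.89 ± 0.40. Igf1 fell by 1.02 ± 0.26 and the growth hormone receptor Ghr by 1.08 ± 0.32. Both of these calls were lost without transgenic replicate 1 or 3 and without wild type replicate 1, 3 or 4, and that of Ghr also without transgenic replicate 4 or wild type replicate 2 (adjusted p up to 0.0795 for Igf1 and 0.131 for Ghr). Igfbp5 fell by 1.24 ± 0.19 with replicate 2 within its group (6.25, 5.91, 5.50 and 5.87 in transgenic livers).

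Among genes that take up and burn glucose more fell than rose. Of 23 tested members of the glucose uptake and glycolysis list 0 rose and 6 fell, with a median of -0.24. Without replicate 2 there were 9 that fell, against 11.4% of all tested genes, and 2 that rose, against 15.4%. The 2 were the aldolase Aldoa (1.02) and the lactate dehydrogenase subunit Ldha (0.47), both named after their values were seen. Pklr, the liver pyruvate kinase, read 10.31, 10.90, 9.52 and 10.15 in transgenic livers and 11.17, 11.32, 11.28 and 11.12 in wild type livers and fell by 1.00 ± 0.22 (adjusted p = 0.0154). The glucokinase regulator Gckr fell by 1.10 ± 0.23, the glucose transporter Slc2a2 by 0.81 ± 0.15 and the phosphofructokinase Pfkm by 0.82 ± 0.11. Ketohexokinase (Khk), which takes fructose in, fell by 0.83 ± 0.20 and Mlxipl, the carbohydrate-sensing factor ChREBP, by 0.65 ± 0.17. Both calls were lost without transgenic replicate 1 or 3 and without wild type replicate 1 or 2, and that of Mlxipl also without transgenic replicate 4 or wild type replicate 3 or 4 (adjusted p up to 0.0626 and 0.0858). On the gluconeogenesis list 2 of 20 members rose and 3 fell (10% and 15%, against 7.97% and 6.15% of all tested genes). Gpt, the alanine transaminase, read 8.63, 9.23, 8.44 and 8.86 in transgenic livers and 9.86, 9.62, 9.68 and 10.02 in wild type livers and fell by 1.00 ± 0.16.

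The glycogen genes changed in opposite directions within 1 family of phosphatase-targeting subunits. These proteins bring protein phosphatase 1 to the glycogen particle, where it activates glycogen synthase. Ppp1r3g read 9.41, 7.28, 11.04 and 11.11 in transgenic livers and 7.03, 6.62, 6.99 and 7.02 in wild type livers, a rise of 2.80 ± 0.65 (adjusted p = 0.0183) that missed the threshold without transgenic replicate 3 (adjusted p = 0.0608). Ppp1r3b read 7.10, 6.85, 6.52 and 7.58 in transgenic livers and 8.68, 8.67, 8.57 and 8.32 in wild type livers and fell by 1.55 ± 0.22 (adjusted p = 0.00259). Replicate 2 was near wild type for Ppp1r3g and in the middle of its group for Ppp1r3b. Ppp1r3c differed by -1.56 ± 0.51 and was not called (adjusted p = 0.0593). The liver glycogen synthase Gys2 read 12.47, 11.98, 12.54 and 12.60 in transgenic livers and 11.60, 11.75, 11.34 and 11.48 in wild type livers and rose by 0.85 ± 0.15, and the brain-type glycogen phosphorylase Pygb rose by 1.96 ± 0.40, whereas the liver phosphorylase Pygl differed by -0.50 ± 0.21 and was not called. Over the 20 tested members of the list 3 rose and 2 fell.

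Fat synthesis was the metabolic list with the most genes that fell, 13 of 29, while 1 rose. The median was -0.42. Thrsp, a lipogenic nuclear protein, read 7.95, 10.27, 8.23 and 9.36 in transgenic livers and 11.14, 11.68, 11.21 and 11.67 in wild type livers and fell by 2.47 ± 0.40 (adjusted p = 0.00419). Srebf1, the gene of the insulin-driven lipogenic factor SREBP1, read 8.11, 8.69, 8.12 and 8.42 in transgenic livers and 9.36, 8.998, 9.98 and 9.85 in wild type livers and fell by 1.21 ± 0.20 (adjusted p = 0.00535). Replicate 2 stood nearest to wild type in both and was still below every wild type liver. The enzymes fell by less or with less certainty. Fasn, the fatty acid synthase, read 10.70, 10.71, 9.32 and 9.89 in transgenic livers and 11.27, 11.26, 11.41 and 11.60 in wild type livers and fell by 1.23 ± 0.31 (adjusted p = 0.0256). Acly, which makes cytosolic acetyl-CoA, fell by 0.75 ± 0.19, the carboxylase Acaca by 0.83 ± 0.23, the desaturase Scd1 by 0.52 ± 0.14, the malic enzyme Me1 by 0.45 ± 0.12 and the acyltransferase Agpat2 by 0.83 ± 0.19. Of these 6 enzymes none kept its call with every single array left out. Agpat2 lost it without wild type replicate 1 (adjusted p = 0.0527), and the others without transgenic replicate 3 and without at least 3 wild type arrays (adjusted p up to 0.106, for Me1). With the Xist covariate 3 members passed, all lower.

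Fat oxidation did not move as a list, with 5 of 35 members higher, 0 lower and a median of -0.01. The rises lay in single genes. Ehhadh, the peroxisomal bifunctional enzyme, read 12.71, 11.66, 12.78 and 12.88 in transgenic livers and 11.52, 11.09, 11.10 and 11.50 in wild type livers and rose by 1.20 ± 0.23 (adjusted p = 0.00784). The mitochondrial enzyme subunit Hadhb rose by 0.50 ± 0.11, and the thioesterase Acot2 by 2.04 ± 0.53. Acot2 read 12.04, 9.42, 12.32 and 12.36 in transgenic livers and 10.04, 9.48, 9.09 and 9.37 in wild type livers, so that replicate 2 fell inside the wild type range and the call was lost without transgenic replicate 1, 3 or 4 or wild type replicate 2, 3 or 4 (adjusted p up to 0.0908). The rate-setting transferase Cpt1a differed by 0.24 ± 0.11 and the receptor Ppara by -0.34 ± 0.19, and neither was called. Of 30 genes of fatty acid uptake and lipid droplets 7 rose and 1 fell. The fatty acid translocase Cd36 read 11.51, 11.58, 11.53 and 11.51 in transgenic livers and 10.82, 10.25, 10.06 and 10.81 in wild type livers, and rose by 1.05 ± 0.15 (adjusted p = 0.00262). All 4 transgenic livers were nearly equal there, while the wild type livers of low Xist lay below those of high Xist. The lipid droplet coat Plin2 rose by 0.59 ± 0.12 and the lipase Pnpla2 by 0.61 ± 0.16, the latter not without transgenic replicate 1, 3 or 4 or wild type replicate 1, 3 or 4 (adjusted p up to 0.0899).

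Among 24 apolipoprotein and lipoprotein genes 2 rose and 6 fell (8.33% and 25%, against 7.97% and 6.15% of all tested genes). Apom, the carrier of sphingosine-1-phosphate on HDL, read 11.79, 11.27, 11.54 and 11.48 in transgenic livers and 10.51, 10.36, 10.53 and 10.71 in wild type livers and rose by 1.00 ± 0.23. Scarb1, the HDL receptor, read 11.63, 11.99, 11.61 and 11.66 in transgenic livers and 11.13, 11.16, 11.32 and 11.40 in wild type livers. It rose by 0.47 ± 0.11, with replicate 2 the highest of all livers, and lost its call without wild type replicate 1 or 2 (adjusted p up to 0.0599). Angptl8, an insulin-induced inhibitor of lipoprotein lipase, read 7.85, 7.45, 7.16 and 7.91 in transgenic livers and 8.62, 8.48, 8.52 and 8.41 in wild type livers and fell by 0.91 ± 0.18. Apoa4 fell by 0.84 ± 0.21, a call lost without transgenic replicate 3 or any 1 wild type array (adjusted p up to 0.0815).

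Among genes of bile acid synthesis and of amino acid breakdown more fell than rose. On the bile acid list 3 of 29 members rose and 7 fell, with a median of -0.42. Hsd3b7, which acts on the steroid ring early in bile acid synthesis, read 10.43, 10.81, 9.46 and 9.89 in transgenic livers and 11.20, 10.98, 11.24 and 11.15 in wild type livers and fell by 1.00 ± 0.23. Cyp7a1, the rate-limiting enzyme, read 11.24, 11.23, 11.002 and 11.12 in transgenic livers and 12.31, 12.24, 11.41 and 11.48 in wild type livers and fell by 0.71 ± 0.20, but not without transgenic replicate 1, 3 or 4 or wild type replicate 1 or 2 (adjusted p up to 0.106). The efflux pumps Abcc3 and Abcc4, which return bile acids to the blood, were higher by 0.46 ± 0.12 and 0.97 ± 0.25. Their calls were lost without any of transgenic replicates 1, 3 and 4 and wild type replicates 2 and 3, and that of Abcc4 also without wild type replicate 1 or 4 (adjusted p up to 0.0898). The bile acid receptor Nr1h4 fell by 0.63 ± 0.16, a call lost without transgenic replicate 1, 3 or 4 or wild type replicate 1, 2 or 3 (adjusted p up to 0.0849). Of 33 genes of the urea cycle and amino acid breakdown 0 rose and 12 fell, with a median of -0.33. Prodh, which opens proline oxidation, read 8.23, 10.26, 8.57 and 9.37 in transgenic livers and 10.69, 10.79, 10.58 and 10.70 in wild type livers and fell by 1.58 ± 0.33. Uroc1 of histidine breakdown read 9.02, 10.22, 8.87 and 9.59 in transgenic livers and 11.07, 10.66, 10.77 and 11.06 in wild type livers and fell by 1.47 ± 0.24, and the tryptophan pathway enzyme Haao fell by 1.05 ± 0.25 (adjusted p = 0.0507 without transgenic replicate 1, the call being lost also without wild type replicate 1). Arginase (Arg1), the last enzyme of the urea cycle, read 11.77, 11.51, 10.59 and 11.28 in transgenic livers and 12.34, 12.30, 12.08 and 12.18 in wild type livers and fell by 0.94 ± 0.20, whereas the first, Cps1, differed by 0.09 ± 0.08 and was not called.

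Of 43 plasma protein and clotting genes that hepatocytes secrete, 2 rose and 6 fell (7.97% and 6.15% of all tested genes). Without replicate 2 there were 2 that rose and 23 that fell, against 15.4% and 11.4% of all tested genes. The clotting factors F11 and F7 fell by 1.87 ± 0.40 and 1.17 ± 0.24. F11 read 7.16, 9.31, 6.93 and 8.12 in transgenic livers and 9.71, 9.66, 9.95 and 9.67 in wild type livers. Transthyretin (Ttr) fell by 0.44 ± 0.10 and the anticoagulant protein S (Pros1) rose by 0.82 ± 0.10, while Alb differed by -0.09 ± 0.06 and was not called. Among 29 acute phase genes 3 rose and 6 fell (10.3% and 20.7%, against 7.97% and 6.15% of all tested genes). Saa4, the constitutively made serum amyloid A, read 10.59, 11.99, 10.17 and 10.60 in transgenic livers and 12.11, 12.40, 12.33 and 12.14 in wild type livers and fell by 1.41 ± 0.29, and haptoglobin (Hp) fell by 1.15 ± 0.24. The lipopolysaccharide co-receptor Cd14 went the other way. It read 9.15, 6.48, 9.79 and 8.51 in transgenic livers and 5.95, 5.65, 5.77 and 5.69 in wild type livers and rose by 2.72 ± 0.52 (adjusted p = 0.00847), while the binding protein Lbp fell by 0.84 ± 0.20, not without transgenic replicate 3 or 4 or wild type replicate 1, 2 or 4 (adjusted p up to 0.0619).

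The largest rise of all named genes was in the peroxide defence. Gpx3, the secreted glutathione peroxidase, read 13.27, 10.09, 13.48 and 13.32 in transgenic livers and 7.31, 7.46, 6.72 and 6.70 in wild type livers. All transgenic livers stood above all wild type livers, replicate 2 by less than the others, and the difference was 5.49 ± 1.01 (95% interval 3.29 to 7.69, adjusted p = 0.00723) or 45-fold. On the antioxidant list 5 of 29 members rose and 0 fell, and the other 4 are the sestrins and Txnip given above. Of 29 NRF2 targets and glutathione transferases 8 rose and 0 fell. Heme oxygenase Hmox1 read 10.50, 9.16, 9.75 and 9.37 in transgenic livers and 8.40, 8.96, 8.25 and 8.34 in wild type livers and rose by 1.21 ± 0.26, and Gstt2 rose by 1.06 ± 0.21. The glutathione enzymes Gss and Gsr rose by 0.77 ± 0.19 and 0.52 ± 0.12, calls lost without wild type replicate 2 or 4, and for Gss also without transgenic replicate 1 or 3 and for Gsr without wild type replicate 1 (adjusted p up to 0.0712).

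Carboxylesterases, conjugating enzymes and 1 deiodinase had some of the largest falls. On the list of 27 glucuronosyl- and sulfotransferases and carboxylesterases 1 rose and 8 fell, with a median of -0.71. Ces1f read 6.37, 10.88, 7.27 and 9.60 in transgenic livers and 11.88, 11.78, 11.94 and 11.64 in wild type livers and fell by 3.28 ± 0.74 (adjusted p = 0.0165, and 0.0561 without transgenic replicate 3). Ces1e, Ces1b and Ces1d fell by 2.24 ± 0.47, 2.20 ± 0.44 and 2.09 ± 0.50, the last not without transgenic replicate 3 or wild type replicate 1 or 4 (adjusted p up to 0.0707). These genes lie in 1 cluster of near-identical copies, so their probe sets may share signal. Dio1, which converts thyroxine into the active thyroid hormone, read 6.47, 10.24, 5.99 and 7.98 in transgenic livers and 10.61, 10.64, 10.63 and 10.89 in wild type livers and fell by 3.02 ± 0.68 (adjusted p = 0.0165). In both Ces1f and Dio1 replicate 2 was the transgenic liver nearest to wild type and replicate 4 the next. Of 28 xenobiotic cytochromes P450 and their receptors 0 rose and 4 fell.

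Genes of autophagy and of the lysosome were called in both directions, more of them higher than lower. Of 36 autophagy genes 8 rose and 3 fell, with a median of 0.07. Wipi1, which binds the lipid of the forming autophagosome, read 9.41, 9.94, 9.97 and 9.62 in transgenic livers and 8.41, 8.65, 8.73 and 8.48 in wild type livers and rose by 1.17 ± 0.14 (adjusted p = 0.00130). In Wipi1 replicate 2 was among the highest livers. The cargo receptor Nbr1 read 11.35, 11.39, 11.27 and 11.26 in transgenic livers and 10.77, 10.94, 11.02 and 10.90 in wild type livers and rose by 0.41 ± 0.08. The membrane-coupled proteins Map1lc3b and Gabarapl1 rose by 0.54 ± 0.12 and 0.46 ± 0.12, and the receptor Sqstm1 by 0.61 ± 0.15. Their calls were lost without transgenic replicate 3 or wild type replicate 4, and the last 2 also without other arrays (adjusted p up to 0.0992). The starting kinase Ulk1 differed by -0.37 ± 0.18 and was not called. Without replicate 2, 8 members rose and 4 fell, against 15.4% and 11.4% of all tested genes. The 4 were Map1lc3a (-0.66), a close relative of Map1lc3b, Atg3 (-0.58), Ulk2 (-0.39) and Atg9b (-0.29). With the Xist covariate 1 member rose and 0 fell, against 2.79% and 1.56% of all tested genes. Of 38 lysosomal genes 10 rose and 2 fell (26.3% and 5.26%, against 7.97% and 6.15% of all tested genes). Mcoln1, the calcium channel of the lysosome, read 10.85, 11.37, 11.28 and 11.34 in transgenic livers and 10.20, 10.23, 10.37 and 10.17 in wild type livers and rose by 0.97 ± 0.13 (adjusted p = 0.00157). Atp6v0d2, a proton pump subunit of restricted expression, read 11.42, 9.41, 10.83 and 10.11 in transgenic livers and 8.22, 5.80, 5.25 and 8.27 in wild type livers and rose by 3.56 ± 0.65. It differed by 4.92 from the low-Xist wild type livers. The protease Ctss, abundant in macrophages, rose by 0.84 ± 0.18.

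The cell cycle list had a median of 0.36, with 6 of 46 members called higher and 0 lower. Against the wild type mean the list's mean was 0.53, 0.65 and 0.61 in transgenic replicates 1, 3 and 4 and -0.07 in replicate 2, beside -0.07 to 0.15 in wild type livers. Mcm6, a subunit of the replicative helicase, read 6.88, 5.85, 7.73 and 7.21 in transgenic livers and 5.84, 5.43, 5.71 and 5.21 in wild type livers and rose by 1.37 ± 0.32 (adjusted p = 0.0176, and 0.0529 without wild type replicate 4). Myc read 10.33, 8.14, 10.66 and 9.95 in transgenic livers and 8.25, 7.76, 8.81 and 8.15 in wild type livers and rose by 1.53 ± 0.43, and the licensing factor Cdt1 and the clamp Pcna rose by 0.93 ± 0.23 and 0.57 ± 0.16. These 3 calls were each lost without transgenic replicate 1 or 3 or wild type replicate 1 or 4, and at times without other arrays (adjusted p up to 0.118). Ccnd1 read 11.53, 8.57, 11.09 and 11.22 in transgenic livers and 10.71, 9.35, 8.62 and 9.88 in wild type livers and was not called, and neither was the proliferation marker Mki67 (0.75 ± 0.33). Without replicate 2, 20 members passed, all higher, against 15.4% of all genes higher in that fit. On the apoptosis list 5 of 28 rose and 1 fell. The rises included the survival genes Mcl1 (0.66 ± 0.11) and Bcl2l1 (0.55 ± 0.13, lost without wild type replicate 1 or 2, adjusted p up to 0.0581). Without replicate 2, 8 members rose and 2 fell, against 15.4% and 11.4% of all tested genes. Besides Mcl1, Bcl2l1 and the survival gene Bcl2 (0.60), the 8 were the death receptor Tnfrsf10b (0.98) and the death-promoting Bcl2l11 (0.90), Bik (0.68), Apaf1 (0.67) and Bnip3l (0.31). The 2 that fell were Tnfsf10 (-0.72) and Bid (-0.68). Of 32 stress response genes 5 rose and 0 fell. The endoplasmic reticulum stress kinase Eif2ak3 read 8.68, 8.29, 9.12 and 8.69 in transgenic livers and 7.41, 7.93, 7.71 and 7.38 in wild type livers and rose by 1.08 ± 0.18, and the factor Atf4 rose by 0.69 ± 0.15 (adjusted p = 0.0564 without transgenic replicate 3). The ubiquitin ligase subunit Fbxo21 rose by 0.87 ± 0.12. On its list 3 of 41 members were higher and 1 lower (7.32% and 2.44%, against 7.97% and 6.15% of all tested genes).

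Among transport genes for ions and water more fell than rose. Of 27 tested 2 rose and 11 fell, with a median of -0.45. The epithelial sodium channel subunit Scnn1a read 6.50, 8.28, 5.76 and 6.43 in transgenic livers and 9.23, 9.27, 9.23 and 9.45 in wild type livers and fell by 2.55 ± 0.41 (adjusted p = 0.00419). The membrane carbonic anhydrase Car14 fell by 1.55 ± 0.25, the water channel Aqp8 by 2.17 ± 0.44 and the chloride channel Clcn2 by 1.10 ± 0.17. The anion exchanger Slc4a9 rose. It read 9.22, 5.75, 9.53 and 8.51 in transgenic livers and 5.52, 5.24, 5.37 and 5.42 in wild type livers, and its difference of 2.86 ± 0.69 lost its call without transgenic replicate 1, 3 or 4 or wild type replicate 1 or 2 (adjusted p up to 0.0683). Among 20 hepatocyte transcription factors 1 rose and 2 fell (5% and 10%, against 7.97% and 6.15% of all tested genes). The one that rose was Foxa1, a forkhead factor of another subfamily, which read 9.69, 9.31, 9.65 and 9.51 in transgenic livers and 8.50, 8.66, 8.85 and 8.62 in wild type livers (0.89 ± 0.11, adjusted p = 0.00130). Hnf4a differed by -0.11 ± 0.10 and Cebpa by -0.48 ± 0.21, and neither was called. Of 19 genes typical of hepatocytes near the portal vein 1 rose and 6 fell (median -0.47). Of 22 typical of those near the central vein 1 rose and 1 fell (median -0.08). The shares of all tested genes were 7.97% and 6.15%. With the Xist covariate the medians were -0.15 and -0.06, and with low-Xist arrays only -0.13 and -0.04. The portal median thus moved with the Xist level.

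Markers of other cells differed in part. In whole liver, more cells of a type and more RNA per cell cannot be told apart. Of 25 Kupffer cell and macrophage genes 6 rose and 0 fell, with a median of 0.68. The mean of the list, taken against the wild type mean, was 0.79, 0.19, 0.94 and 0.76 in the transgenic livers and 0.33, -0.27, -0.09 and 0.03 in the wild type livers, so replicate 2 fell inside the wild type range. Cd5l, a macrophage-secreted protein, rose by 1.03 ± 0.21 and the complement subunit C1qa by 0.71 ± 0.15. Clec4f, the defining lectin of mouse Kupffer cells, read 10.61, 10.21, 10.57 and 10.50 in transgenic livers and 10.33, 9.54, 9.69 and 9.84 in wild type livers and rose by 0.62 ± 0.16, and the scavenger receptor Marco rose by 1.32 ± 0.40. Both of these calls were lost without transgenic replicate 1, 3 or 4 or wild type replicate 2, 3 or 4, and that of Marco also without wild type replicate 1 (adjusted p up to 0.0837 and 0.144). Cd14 and Ctss, given above, are macrophage genes too, and the part of these cells in their rises was not tested. None of 21 lymphocyte and dendritic cell genes or 25 endothelial genes passed in limma. At an unadjusted p under 0.05, 3 and 1 of them were higher and 0 and 1 lower. Of all 14953 tested genes 2508 were higher and 2204 lower at that p. Of 29 stellate cell and matrix genes 2 rose and 1 fell (6.9% and 3.45%, against 7.97% and 6.15% of all tested genes). The endothelial marker Pecam1 differed by 0.14 ± 0.21, the stellate marker Des by 0.24 ± 0.12 and the bile duct marker Krt19 by -0.20 ± 0.07, none called.

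Of 20 genes of fetal liver and liver tumours 8 rose and 0 fell, with a median of 0.49. Krt18, a keratin of hepatocytes, read 12.17, 11.65, 12.57 and 12.03 in transgenic livers and 10.69, 10.83, 10.996 and 11.03 in wild type livers and rose by 1.22 ± 0.21 (adjusted p = 0.00554). Afp, the main fetal serum protein, read 10.31, 5.64, 9.66 and 8.31 in transgenic livers and 5.47, 5.32, 5.52 and 5.52 in wild type livers and rose by 3.02 ± 0.73, and the proteoglycan Gpc3 read 8.72, 5.37, 8.05 and 7.92 in transgenic livers and 5.63, 5.55, 5.61 and 5.84 in wild type livers and rose by 1.86 ± 0.53. In both, replicate 2 was at the wild type level, and the calls were lost without transgenic replicate 1 or 3 or wild type replicate 1, 2 or 4, and for Gpc3 also without transgenic replicate 4 or wild type replicate 3 (adjusted p up to 0.0715 and 0.115). Of 24 interferon-stimulated genes 2 rose and 3 fell (8.33% and 12.5%, against 7.97% and 6.15% of all tested genes). Usp18, an inhibitor of interferon signalling, read 10.32, 10.02, 11.14 and 10.63 in transgenic livers and 9.19, 8.59, 8.97 and 9.15 in wild type livers and rose by 1.55 ± 0.22, Ifit2 rose by 1.72 ± 0.41 and Oasl1 fell by 0.97 ± 0.17; the call of Ifit2 was lost without transgenic replicate 3 or 4 or wild type replicate 1 or 2 (adjusted p up to 0.0560).

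Further rises among the 30 largest were found in receptors and secreted proteins. Epdr1, a secreted lipid-binding protein, read 9.45, 8.52, 8.44 and 9.11 in transgenic livers and 6.06, 5.85, 5.52 and 5.99 in wild type livers and rose by 3.02 ± 0.33 (adjusted p = 0.000790). The cytokine receptor Il17rb read 10.60, 9.12, 10.70 and 10.35 in transgenic livers and 7.80, 7.80, 7.48 and 7.48 in wild type livers and rose by 2.55 ± 0.30. Follistatin (Fst), which binds activins, read 9.38, 7.62, 10.63 and 10.36 in transgenic livers and 7.19, 6.90, 6.80 and 6.91 in wild type livers and rose by 2.54 ± 0.49. Replicate 2 belonged to the transgenic group for Epdr1 and stood nearer to wild type for Fst. The adhesion receptor Adgrf1 read 9.52, 9.78, 10.02 and 9.80 in transgenic livers and 7.67, 6.78, 8.43 and 8.13 in wild type livers and rose by 2.03 ± 0.27, and the membrane protein Tmem62 rose by 1.79 ± 0.16 (adjusted p = 0.000318), both with replicate 2 at the level of its group.

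**Figure D2:**
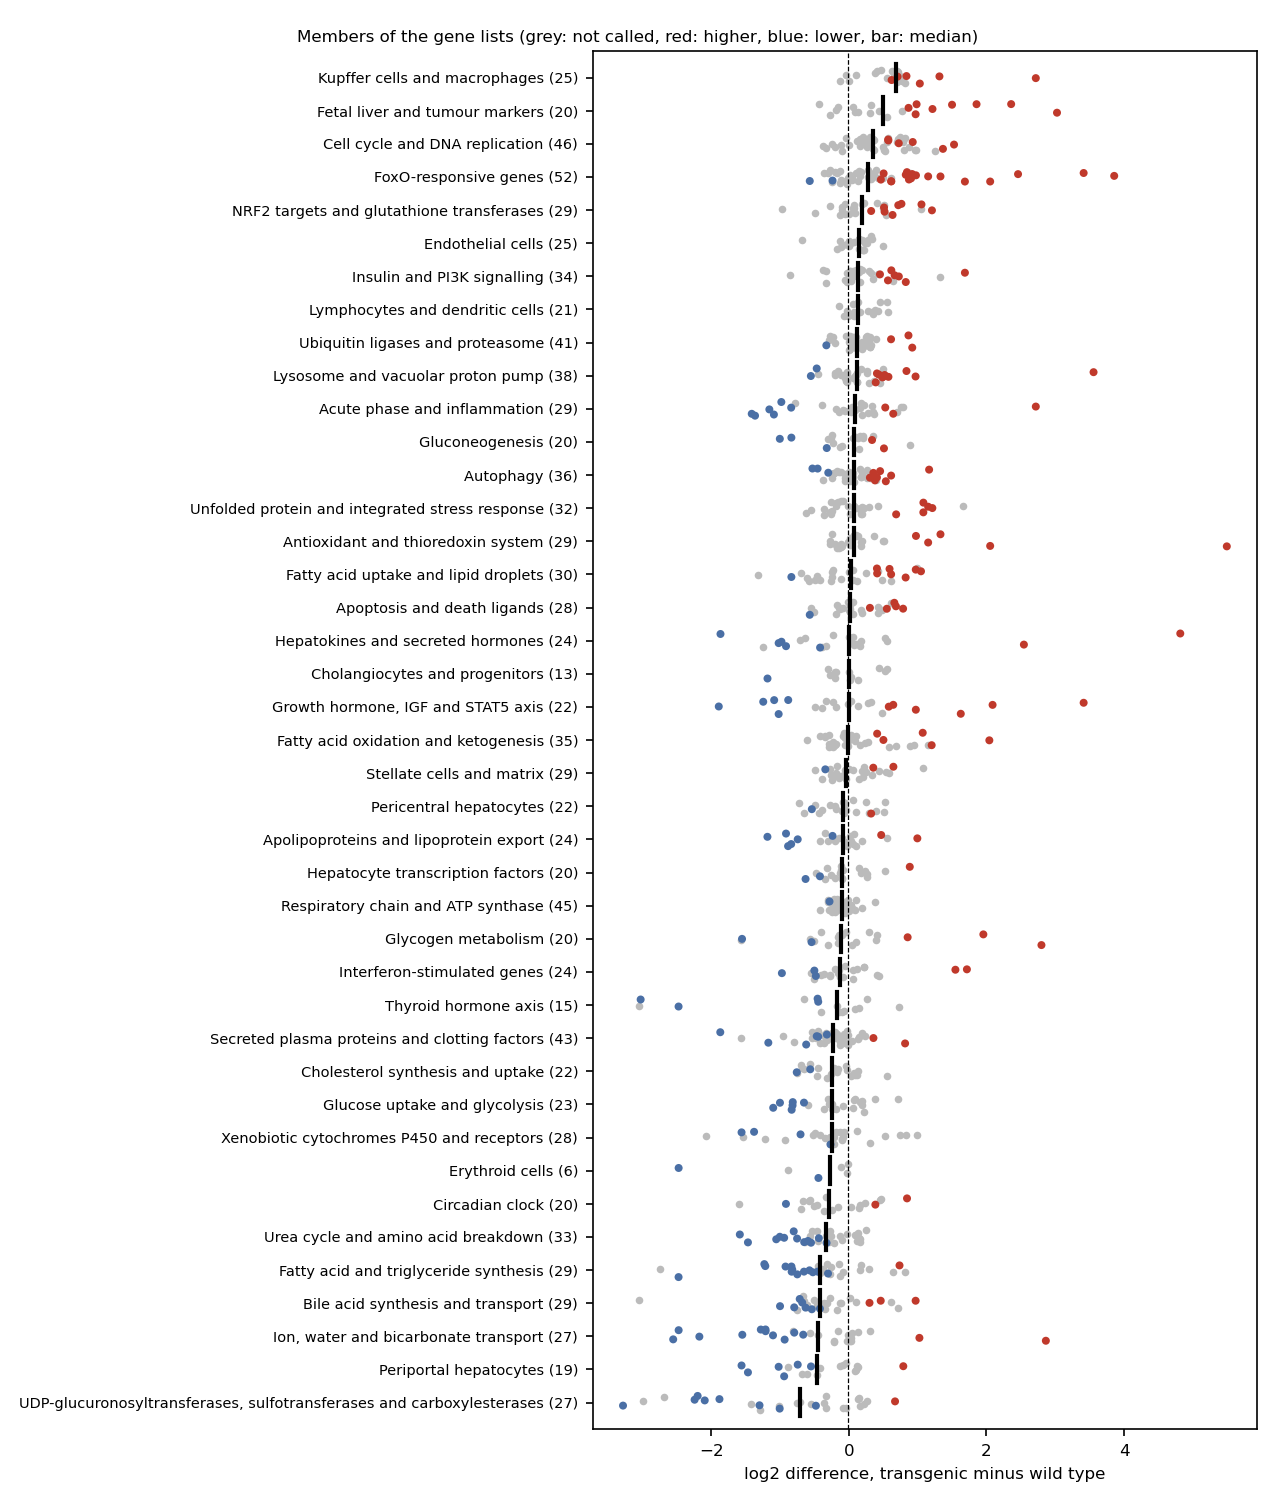
Log2 difference between transgenic and wild type livers for every tested member of 41 gene lists, 1 point per gene, red where it rose, blue where it fell and grey where it was not called; the black bar is the list's median and the dashed line the median of all tested genes (-0.01). The number tested is in brackets; the 3 lists of sex-biased and sex-chromosome genes are not drawn. Medians run from -0.71 for conjugating enzymes and carboxylesterases to 0.68 for Kupffer cells and macrophages.

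How far each array carried the transgenic pattern was read from genes called without it. For each gene the position of the left-out array was expressed as percent of the way from the wild type mean (0) to the mean of the remaining transgenic arrays (100). Transgenic replicates 1, 3 and 4 had medians of 102.1%, 142.6% and 89.0% of the way, measured against means that include replicate 2, and the wild type arrays 2.3% to 10.6%. Transgenic replicate 2 had a median of 24.9% over 4004 genes, with quartiles of -0.4% and 51.8%. Of these genes 2003 were under 25% of the way in replicate 2 and 470 (11.7%) were at 75% or more. In replicate 2, 2987 of the genes (74.6%) differed from the wild type mean in the same direction as the other transgenic arrays, and 1053 were past the midpoint. Replicate 2 thus shared the direction of most of these differences but few of them in full.

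**Figure D3:**
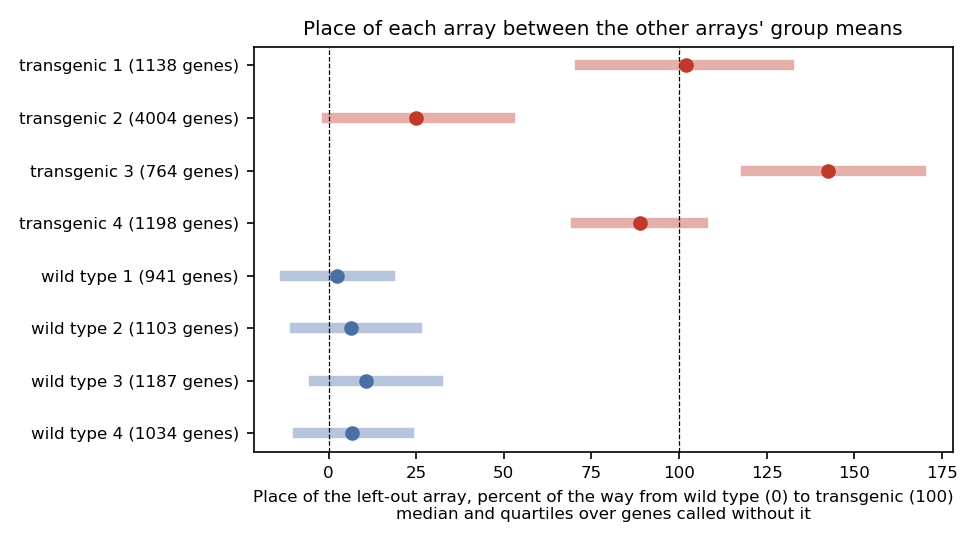
Place of each array on the way from the wild type mean (0%) to the transgenic mean (100%) of the other arrays, as the median (point) and quartiles (bar) over the genes called without that array. Transgenic replicate 2 lies at 24.9%, between the wild type arrays (2.3% to 10.6%) and the other transgenic arrays (89.0% to 142.6%).

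The split ran through the FoxO-responsive genes as it did through all genes. Of the 25 called without replicate 2, 6 were at 75% or more of the way in that liver and 13 were under 25%. Their median was 24.1%, near the 24.9% of all 4004 genes, of which 11.7% were at 75% or more and 50% under 25%. Sesn1 stood at 96.5%, Sesn3 at 128.1% and Rbl2 at 128.6%. Igfbp1 stood at 20.7%, Irs2 at 20.6% and Pdk4 at 27.6%, while Txnip, Eif4ebp1 and Ddb1 were in between (54.9% to 60.5%). Autophagy genes were shared most among the lists with at least 10 called members, with a median of 74.2%, 6 of 12 at 75% or more and 4 under 25%. Wipi1 stood at 124.4%, Nbr1 at 125.8% and Gabarapl1 at 134.2%, and Mcoln1 of the lysosome at 122.9%, whereas Sqstm1 stood at 16.5%. The cell cycle list (median -8.7% over 20 genes), fatty acid oxidation (-6.5% over 12), plasma proteins (-3.3% over 25) and fetal liver genes (1.7% over 12) were near the wild type level in replicate 2. The level of the transgene in each liver was not measured here.

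**Figure D4:**
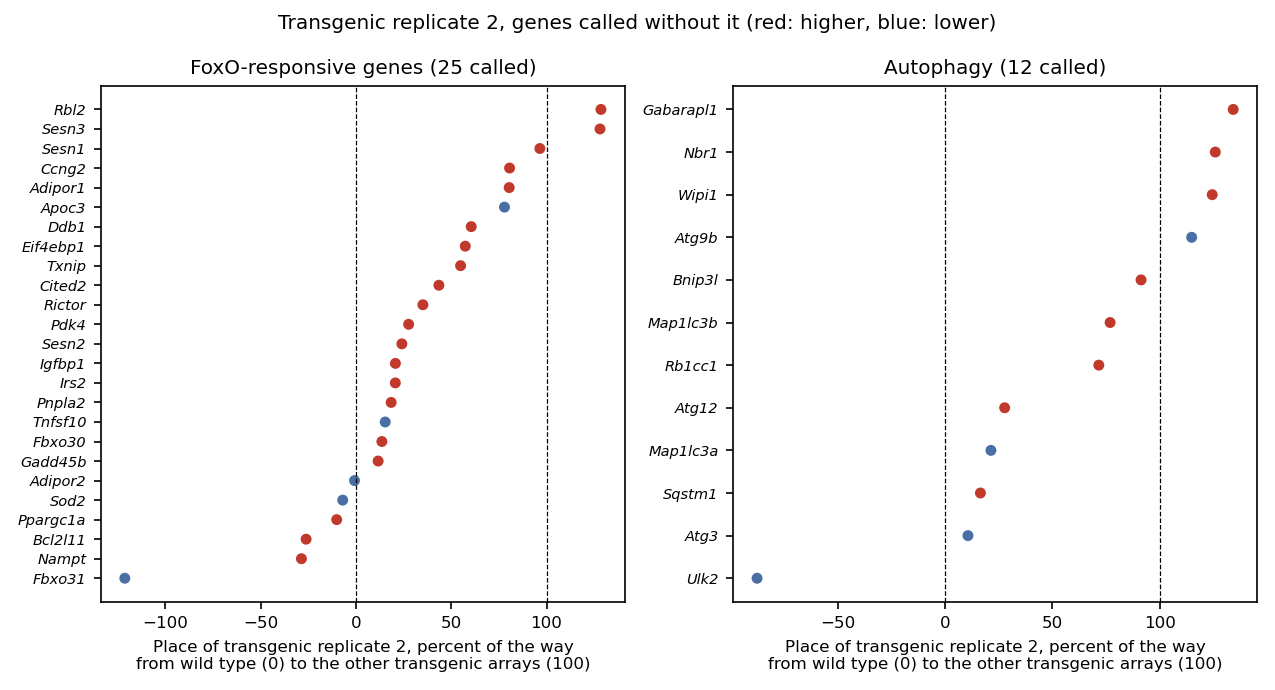
Place of transgenic replicate 2 on the way from the wild type mean (0%) to the mean of the other transgenic arrays (100%), 1 point per gene, for the FoxO-responsive (25) and autophagy (12) genes called without that array; red genes were higher and blue genes lower in transgenic livers. Sesn3 and Rbl2 lie past 100%, Igfbp1 and Irs2 near 21%.

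Against the wild type livers of matched Xist level, many male-biased liver genes were lower and many female-biased ones higher in transgenic livers. In mice many liver genes are set by the timing of growth hormone pulses, and lists of 22 male-biased and 20 female-biased genes were compared with wild type replicates 2 and 3, the livers with low Xist like all transgenic ones. In the wild type animals 20 of the 22 male-biased genes were higher in low-Xist than in high-Xist livers, and 0 of the 20 female-biased ones were. That is no independent check, as the lists were chosen with earlier results of these data known. Besides, some of the female-biased genes, named below, passed the filter on dim genes only through high-Xist arrays. For 9 of the 22 male-biased genes all 4 transgenic livers lay below both low-Xist wild type livers (18.9% of all genes), and for 0 above. For 9 of the 20 female-biased genes all 4 lay above (16% of all genes), and for 0 below. The female-biased members Sult3a1, Cyp2b13, Cyp3a16 and Hao2 were under 4.86, the lowest mean of a tested gene, in all 6 low-Xist arrays, so they passed the filter on dim genes only through high-Xist arrays. Of these Sult3a1 is among the 9, which leaves 8 of 16 without the 4 genes. Slc22a27, another of the 9, read 3.973 and 3.855 in the low-Xist wild type livers and 4.585, 4.264, 4.593 and 5.598 in the transgenic livers. Its mean over these 6 arrays was also under the limit, so it too passed only through high-Xist arrays. The 8 of 16 still counts it. The medians against these livers were -1.33 and 1.13, and -1.80 and 1.30 without replicate 2. Without the 4 dim genes, but with Slc22a27, the female-biased medians were 1.45 and 1.74. With all wild type livers the medians were -0.93 and -0.28, so the female-biased median changed sign with the 2 high-Xist livers in. In the fit of low-Xist arrays without replicate 2, 19 of the 22 male-biased genes fell and 0 rose (7.11% of all genes fell), and 9 of the 20 female-biased genes rose and 0 fell (10.5% of all genes rose). That fit has 3 arrays against 2 and was added after the data were seen. With replicate 2 in it limma called 0 members of either list. At an unadjusted p under 0.05, 8 male-biased ones were lower and 11 female-biased ones higher. Of all 14953 tested genes 1416 were lower and 1682 higher at that p.

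Single genes showed how large the shift was. Hsd3b5, a male-specific steroid dehydrogenase, read 4.74, 9.04, 4.25 and 6.67 in transgenic livers and 4.67, 9.77, 11.29 and 5.36 in wild type livers. Transgenic replicates 1 and 3 were thus as low as the wild type livers with high Xist, against 9.77 and 11.29 in those with low Xist, and replicate 2 was at 9.04. Cyp4a12a, a male-specific fatty acid hydroxylase, read 7.22, 12.65, 8.91 and 11.20 in transgenic livers and 7.45, 12.62, 12.62 and 5.46 in wild type livers, with replicate 2 at the level of the low-Xist wild type livers. The organic anion transporter Slco1a1 read 5.02, 11.81, 5.76 and 9.60 in transgenic livers and 10.68, 11.62, 11.97 and 10.10 in wild type livers. In the same way the elongase Elovl3 read 4.14, 10.45, 4.86 and 5.56 in transgenic livers and 6.51, 10.98, 11.96 and 6.54 in wild type livers. In the other direction the female-specific Cyp2b9 read 10.74, 5.74, 9.33 and 11.20 in transgenic livers and 12.96, 4.72, 4.72 and 13.16 in wild type livers, and Cyp4a14 read 10.94, 9.26, 9.50 and 11.76 in transgenic livers and 11.92, 7.72, 6.87 and 10.38 in wild type livers. The peroxisomal transporter Abcd2 read 10.28, 9.69, 9.79 and 10.44 in transgenic livers and 10.35, 8.56, 8.58 and 10.55 in wild type livers, with all 4 transgenic livers above the low-Xist wild type livers. Elovl3, Cyp2b9, Cyp4a14 and Abcd2 were picked after their values were seen. Not all sex-biased genes reached the level of the other wild type livers. Sult3a1, Cyp2b13 and Hao2, which were above 7 in both high-Xist wild type livers, stayed between 3.46 and 4.72 in the transgenic livers, near the dim end of the arrays. The G protein subunit Gna14 and the glucocorticoid-activating enzyme Hsd11b1, both on the male-biased list, were called with all arrays and fell by 0.95 ± 0.23 and 1.34 ± 0.31, calls lost without transgenic replicate 3 or wild type replicate 4, and for Gna14 also without transgenic replicate 4 or wild type replicate 3 (adjusted p up to 0.0650). Hsd11b1 was not higher in the low-Xist wild type livers. Cyp4a12a, Cyp4a14 and Cyp2b9 have near-identical neighbours, so their probe sets may share signal.

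**Figure D5:**
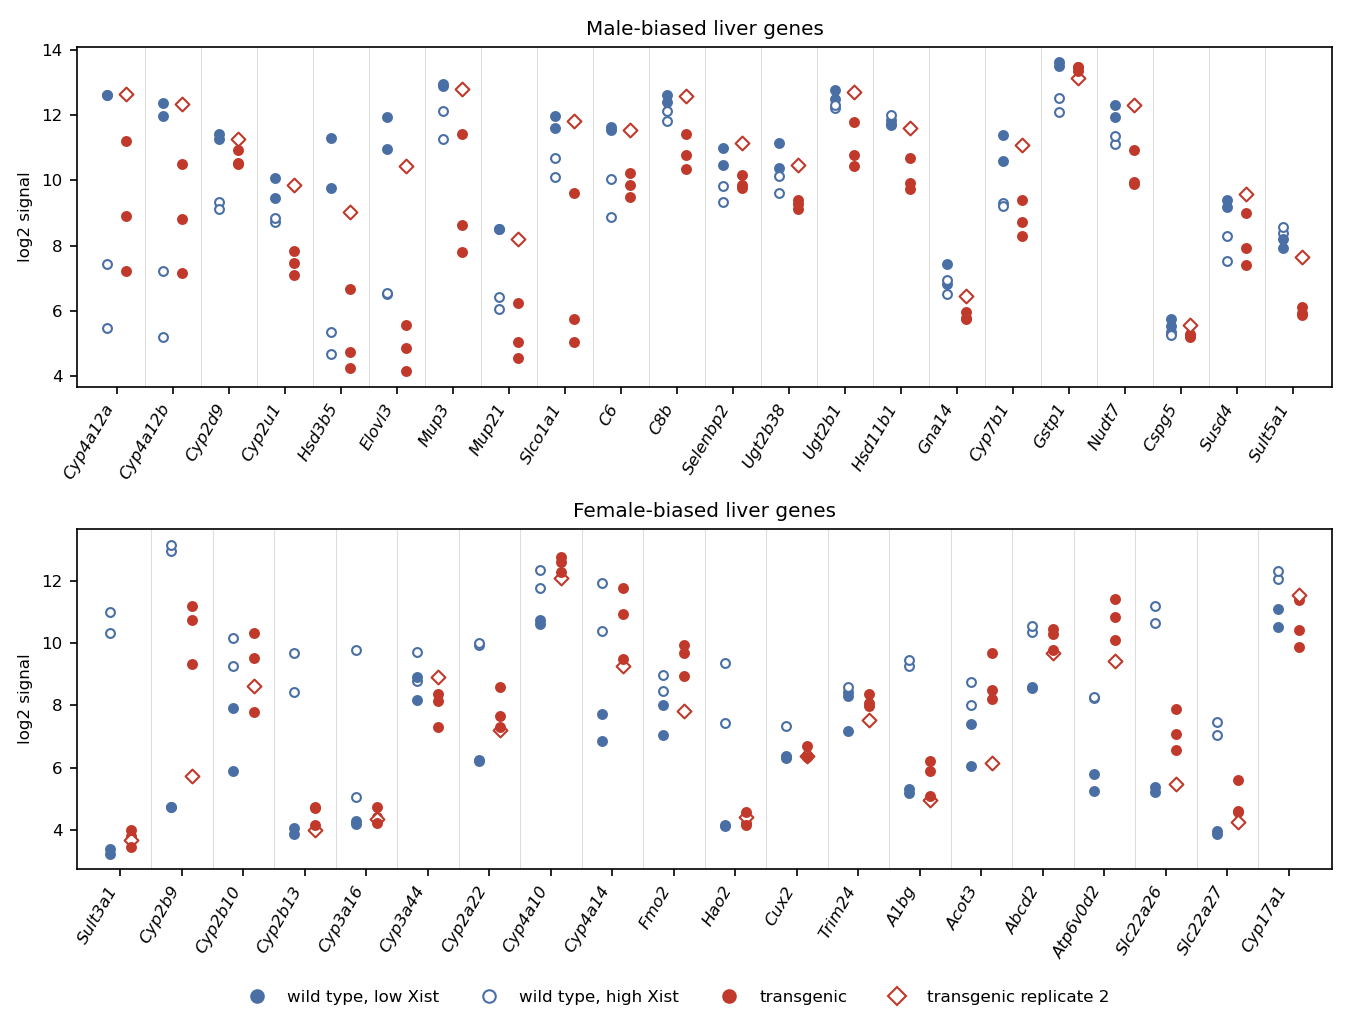
Log2 signal of 22 male-biased and 20 female-biased liver genes in the 8 livers; filled blue circles are the wild type livers with low Xist, open blue circles those with high Xist, red circles the transgenic livers and the open diamond transgenic replicate 2. In the upper panel transgenic replicates 1, 3 and 4 mostly lie below the filled blue circles and the diamond near them; in the lower panel Cyp2b9, Cyp4a14, Abcd2 and Atp6v0d2 have transgenic livers above the filled blue circles.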

How the data were processed

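Gene expression was measured in livers of 12 mice, 4 per group, on one-colour Affymetrix whole-transcript arrays. Per the labels' protocols, RNA was taken with columns from liver kept in RNAlater and labelled with biotin. The authors deposited log2 values per probe set, made with Affymetrix Expression Console per the submitters' processing notes; no source used here gives the summarisation or normalization settings. Array medians lay between 5.69 and 5.85, and the number of arrays limits the precision.

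Rows were named by the platform annotation: 21789 rows had 1 gene, 1621 several and 12146 none. The row with the highest mean stood for a gene, and the 25% of genes with the lowest mean (under 4.86) were left out. limma 3.58.1 (R 4.3.3) fitted 3 group means to all 12 arrays, two-sided, with Benjamini-Hochberg adjustment over 14953 genes at 0.05; ± is the SE of that fit. Tables and tests used Python 3.11.15 with pandas 2.3.3 and SciPy 1.17.1, and the fit was tested on simulated data. Alternatives covered the dim-gene filter, the row per gene, normalization, the variance model, the Xist level, the replicate number and each array left out.

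Named genes were Foxo3, the sex-chromosome genes, the 30 largest changes in each direction among called genes whose groups did not overlap (without predicted genes, small RNAs and the Mup and globin families), the core genes of 44 lists and up to 6 called members of each with the smallest p. The members and lists were chosen with earlier results of these data known, so no list is independent evidence of its direction. Of 1208 list members 1093 were on the array.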

Additional observations from a re-analysis of the deposited data

Results flagged for a closer look

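A sample was singled out where, within a group of 4, its gap to the nearest array exceeded Dixon's 95% critical value. Among 324 groups (162 genes) 24 did so (7.41%), where chance gives about 5%. Of the 24, 14 fell on transgenic replicate 2. Over all tested genes that array was singled out for 371 (2.48%) and each other array for 99 to 201.

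Transgenic replicate 2 lay below the other transgenic arrays for Igfbp1 (10.09), Pdk4 (8.96), Lepr (7.74), Gpx3 (10.09), Bcl2l11 (6.51), Ehhadh (11.66), Acot2 (9.42), Acsl4 (9.81), Abcc4 (6.16), Ccnd1 (8.57) and Atf4 (7.72). It lay above them for Cat (13.56), Mlxipl (10.71) and Scarb1 (11.99). Except for Scarb1, its value was nearer to the wild type mean than any other transgenic array, or beyond that mean. Transgenic replicate 1 was singled out for Mcoln1 (10.85), at which it was the lowest of its group and still above all wild type livers.

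Among wild type arrays, replicate 1 was low for Fbxo30 (7.82). Replicate 2 was high for Foxo1 (9.02) and low for Ppp1r3g (6.62). Replicate 3 was low for Akt2 (10.57) and high for Ghr (12.24) and F11 (9.95). Replicate 4 was high for Dio1 (10.89) and Krt19 (5.87) and low for Des (6.57).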

How the results depend on the processing

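The count of called genes (2111, 1192 higher and 919 lower) ranged from 764 to 4004 over the fits with 1 array left out, the higher calls from 462 to 2302 and the lower from 302 to 1702. It was 4818 (2714 and 2104) with array weights, 650 (417 and 233) with the Xist covariate and 9 (8 and 1) with low-Xist arrays only. Lower calls numbered 552 with arrays centred on the median of all rows. That centring shifted the median of all genes to 0.05, and centring on the tested genes shifted it to -0.08. With low-Xist arrays and replicate 2 also left out 2629 genes passed. The cause of these moves was not tested. Same-numbered arrays of both groups had correlations of deviations of 0.197, -0.031, -0.176 and -0.032. Transgenic replicate 2 and wild type replicate 3 had 0.384. Such values cannot tell whether same-numbered animals were paired. With the replicate block 1807 genes passed (1105 and 702).

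Of 126 called genes of the text, 76 kept their call in all 8 fits with 1 of the 8 arrays left out, and 44 lost it without transgenic replicate 3. Of the same 126 called genes, 63 lost their call with the Xist covariate, 123 with low-Xist arrays only and 6 with the block. The difference of Foxo3 changed sign with quantile normalization (-0.019), with centring on the tested genes (-0.011) and over the left-out arrays (-0.026 to 0.12). That of Cyp4a12a was -2.45 with the Xist covariate, -2.62 with low-Xist arrays, and -3.20 and -3.51 when replicate 2 was also left out; it ranged from -0.90 to 1.49 over the left-out arrays, and that of Cyp2b9 from -1.03 to 1.78. With low-Xist arrays, without and then with the omission of replicate 2, Xist differed by 0.10 and 0.16, Eif2s3y by -0.20 and -0.27, Kdm5d by -0.17 and -0.28 and Uty by -0.73 and -0.79. With the Xist covariate, in the same order, Kdm5d differed by -0.055 and -0.12 and Uty by -0.54 and -0.55.

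Limits: 4 arrays a group, of which 1 transgenic array stood apart; 2 wild type livers with high Xist and no such transgenic liver, so that the Xist level and the genotype are partly confounded; no measure of the transgene; and signal levels that cannot be compared between genes.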
